A study of Mus musculus with 28 samples.

Results

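Peripheral neural stem cells (pNSCs) derived from mouse tail were compared with neural crest stem cells (NCSCs) of the dorsal root ganglia (DRG) by RNA-seq of polyA-selected RNA. The comparison holds 6 of the 28 samples of the series, which were taken by their labels: 3 Wnt1Cre-mTmG tail pNSC samples and 3 DRG NCSC samples. The model also held 3 Wnt1Cre-mTmG DRG pNSC samples, which the study derived from postnatal DRG, and 3 Wnt1Cre-mTmG brain NSC samples. For brain NSCs the study's methods name adult or postnatal mice. The tail pNSCs came from tails of mice at around postnatal day 1 to 5 that carried Wnt1-Cre, a Cre driver active in the dorsal neural tube and neural crest, and R26-mTmG, a reporter that turns from red tdTomato to green GFP in cells with Cre activity and in their progeny. Tail cells were plated unsorted at low density in NSC medium with EGF and bFGF, and the NSC-like clusters that grew were tdTomato-positive and GFP-negative and were picked by hand. By the study's account, most crest-derived cells were green in these mice, although Wnt1-Cre may miss some. The study's text describes its DRG NCSCs as cultures from adult wild-type mice, while the labels of the NCSC samples give neither age nor genotype and name the cell type as NSC. The labels give C57BL/6 as the strain of both groups. The study's methods instead describe its wild-type mice as CD1 or CD1 and C3H mixtures, and its transgenic mice as bred with these. Tissue, age of the donor, strain background, mix of sexes, transgenes and derivation may differ together between the groups and cannot be told apart. The comparison addresses how far pNSCs, which are found outside the central nervous system, differ in gene expression from the stem cells of the neural crest.

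NSCs of the neural tube and brain are epithelial-like cells that keep the SoxB1 transcription factors on and give rise to neurons, astrocytes and oligodendrocytes. The neural crest leaves the dorsal neural tube early in development, switches to SoxE factors such as Sox10, and forms the neurons and glia of peripheral ganglia, Schwann cells and melanocytes. Cultures of postnatal ganglia can hold crest-derived glia and stem cells beside neurons, fibroblasts and resident macrophages.

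The libraries held between 17051461 and 22548268 counts in these 6 samples. Levels are given as cpm, the counts scaled to a common library size with TMM factors, and 3 counts, taken as the smallest detectable amount, stood for 0.154 cpm in the shallowest tail pNSC library and 0.181 cpm in the shallowest NCSC library. Of 28244 genes, 14448 were tested with edgeR's quasi-likelihood F-test in a model that also held brain NSCs and DRG pNSCs of the same experiment (12 samples). A gene was called where its adjusted p (Benjamini–Hochberg) was below 0.05 and its level differed by 2-fold or more, a log2 fold change of 1 in size, and fold changes are given as tail pNSCs minus NCSCs with their SE. Each value rests on 3 samples a group, and the tests borrow the spread from the fit across genes. The 3 tail pNSC libraries differed from each other by 1.16 to 1.41 times the counting error, in mean squared difference, and NCSC replicates 1 and 2 by 2.22 times. Replicate 3 of the NCSCs stood apart, at 16.8 and 21.0 times the counting error from the other two, with lower mitochondrial transcripts (*mt-Nd4* at 1207, 1472 and 388 cpm in NCSC replicates 1, 2 and 3) and lower *Rpl31*. Of 10233 genes at 10 cpm or more in the NCSCs, 8 lay over 2-fold higher and 5 over 2-fold lower in replicate 3 than in the mean of the other two. The study calls the 3 samples of each group biological replicates without saying whether they were separate animals, lines or cultures, and the p-values measure the spread between these samples.

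The tail pNSCs and NCSCs differed widely. The test called 5472 of 14448 genes (37.9%), of which 2205 were higher (15.3% of those tested) and 3267 lower (22.6%) in tail pNSCs. The level did not overlap between the 6 samples for 5450 of the called genes, beside 83.2% of all tested genes. Of the called genes, 591 were at least 8-fold higher and 1450 at least 8-fold lower. Without NCSC replicate 3, 5389 genes were called, 2193 higher and 3196 lower. Of the 33 gene lists described here, 22 then had the same number of higher and lower members and 11 had a count that changed, each by 1. The median log2 fold change of all tested genes was -0.002, so the gene lists below are set against a median near 0. The counts in each list are likewise set against the 15.3% higher and 22.6% lower of all tested genes.

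**Figure D1:**
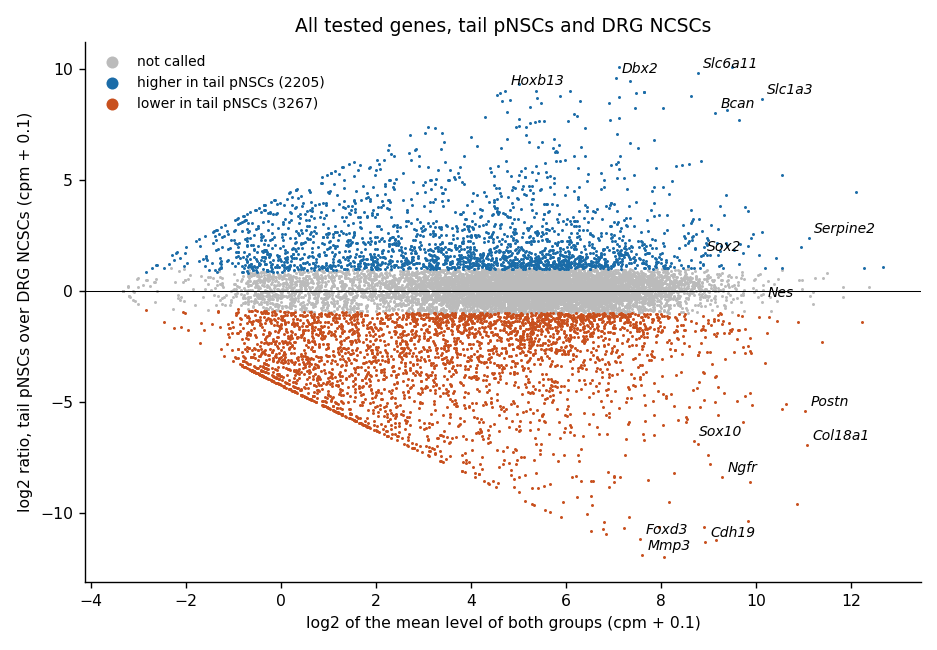
Log2 ratio of the mean level in tail pNSCs to that in DRG NCSCs (y axis) against the log2 of the mean level of both groups (x axis) for the 14448 tested genes, with 0.1 cpm added to every mean. The 2205 called higher genes are blue, the 3267 called lower genes orange and the others grey, and genes such as *Slc1a3* and *Bcan* lie far above 0 while *Cdh19*, *Foxd3* and *Mmp3* lie far below it.

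The transcription factors that define NSCs were mostly higher in tail pNSCs, and the intermediate filament gene of both stem cell types was not. Of 18 genes of the NSC and radial glia list, 13 were higher and 1 lower (72.2% higher beside 15.3% of all tested genes, median log2 fold change 3.25, or 2.94 with *Nr2e1*, at or under 3 counts in both groups, set to 0). *Sox1*, a SoxB1 factor of the neuroepithelium (chromosome 8, 12395295 to 12400126, plus strand, GRCm38), was measured at 86.0, 86.8 and 91.9 cpm in the 3 tail pNSC samples and at 0.142, 0 and 0.301 cpm in the 3 NCSC samples. The groups lay far apart, with a log2 fold change of 9.24 ± 0.17 (adjusted p = 1.4e-18). *Sox1* was near the detection limit in NCSCs, and its log2 fold change was 8.64 without NCSC replicate 2 and 10.10 without replicate 3. *Sox2*, the SoxB1 factor that crest-derived glia also use (chromosome 3, 34650405 to 34652461, plus strand), stood at 693, 682 and 694 cpm against 239, 238 and 218 cpm. Its difference was the smallest of the SoxB1 genes (log2 fold change 1.57 ± 0.04, adjusted p = 6.6e-17), while *Sox3* rose from 14.3 ± 0.612 cpm to 187 ± 4.29 cpm (SD, n = 3 each). *Pax6*, a patterning factor of neural tube progenitors, was at 70.8, 69.0 and 71.7 cpm against 0.379, 0.388 and 0.181 cpm, a log2 fold change of 7.72 ± 0.13. *Msi1*, which encodes an RNA-binding protein of neural progenitors, was higher as well, at 105 ± 2.29 cpm in tail pNSCs and 6.90 ± 0.440 cpm in NCSCs.

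*Nes*, which encodes the intermediate filament nestin of NSCs and crest cells alike, was at 928, 931 and 916 cpm against 1148, 1251 and 1566 cpm, and its log2 fold change of -0.51 ± 0.07 (adjusted p = 4.4e-06) stayed within 2-fold. *Gfap*, the filament of astrocytes, adult NSCs and non-myelinating Schwann cells, fell from 92.9 ± 4.84 cpm to 21.9 ± 0.439 cpm. The radial glia transporter gene *Slc1a3* (GLAST) was at 2243, 2214 and 2231 cpm against 5.07, 5.43 and 5.79 cpm, a log2 fold change of 8.69 ± 0.05. Per kilobase of exon, *Slc1a3* stood at 261 cpm in tail pNSCs and *Fabp7*, a lipid-binding protein of radial glia, at 2316 cpm, so that *Fabp7* was the more abundant of the pair. *Ncan*, a chondroitin sulphate proteoglycan of the brain, was at 1582 ± 19.8 cpm in tail pNSCs and 7.43 ± 1.41 cpm in NCSCs.

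The oligodendrocyte lineage list showed the same direction, with exceptions. Of 13 tested genes, 10 were higher and 2 lower (median log2 fold change 3.67), and *Neu4* was too low to test. *Olig2*, the factor of ventral progenitors and oligodendrocyte precursors (chromosome 16, 91225457 to 91228677, plus strand), was at 896, 905 and 911 cpm against 16.6, 16.7 and 12.5 cpm. The log2 fold change was 5.87 ± 0.07 (adjusted p = 4.1e-21), and *Olig1*, its neighbour on chromosome 16, was at 1631 ± 22.5 cpm in tail pNSCs and 117 ± 3.22 cpm in NCSCs. *Nkx2-2*, a factor of the ventral tube and of maturing oligodendrocyte precursors, was at 15.1, 15.7 and 12.7 cpm against 0.190, 0.340 and 0.0603 cpm. *Bcan*, another brain proteoglycan, was at 1124 ± 4.11 cpm in tail pNSCs and 4.18 ± 0.993 cpm in NCSCs (log2 fold change 8.09 ± 0.07). *Pdgfra*, the PDGF receptor of oligodendrocyte precursors, rose less (log2 fold change 1.32 ± 0.08). The called lower members were *Cspg4* (NG2), at 90.0 ± 0.434 cpm in tail pNSCs and 225 ± 16.96 cpm in NCSCs, and *Gpr17*, at 11.2 ± 0.824 cpm in tail pNSCs and 127 ± 6.04 cpm in NCSCs. Both are known from oligodendrocyte precursors, and *Cspg4* also from pericytes and peripheral glia.

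Genes of astrocyte transport and coupling were also in this direction. Of 9 tested members 8 were higher and none lower (median log2 fold change 5.27), and *Gjb6*, *Gjb2* and *Slco1c1* were too low to test. *Kcnj16*, which encodes a subunit of inwardly rectifying potassium channels (chromosome 11, 110968033 to 111027968, plus strand), was at 60.2, 67.6 and 65.7 cpm in tail pNSCs and at 0 in all 3 NCSC libraries. It was at least 357-fold higher (adjusted p = 6.6e-18). *Slc6a11*, a GABA transporter of astrocytes, was at 878, 871 and 862 cpm against 0.332, 0.582 and 1.63 cpm. Its log2 fold change was 10.09 ± 0.13, or 10.87 without NCSC replicate 3, which held the highest of the 3 NCSC values. *Aqp4*, the water channel of astrocyte endfeet, had a log2 fold change of 7.93 ± 0.17, or 8.89 without that library. *Glul*, which encodes glutamine synthetase, was at 725 ± 7.97 cpm in tail pNSCs and 80.7 ± 3.25 cpm in NCSCs.

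The neural crest list split. Of 17 tested genes, 9 were lower and 5 higher in tail pNSCs (median log2 fold change -1.86), and *Tfap2c* and *Msx2* were too low to test. *Sox10*, the SoxE factor that maintains crest stem cells and glia (chromosome 15, 79154908 to 79165240, minus strand), was at 6.89, 7.75 and 7.39 cpm against 849, 926 and 668 cpm. It fell by 6.79 on the log2 scale (SE 0.12, adjusted p = 9.2e-19) and was still above the detection limit in all 3 tail pNSC libraries. *Foxd3*, a factor of premigratory crest and its stem cells (chromosome 4, 99656299 to 99658622, plus strand), was at 0.0895, 0.0940 and 0 cpm against 353, 391 and 389 cpm. It was at least 2453-fold lower (adjusted p = 4.0e-21). *Tfap2a*, an early crest specifier, was at 39.6, 37.5 and 29.4 cpm in NCSCs and at least 230.3-fold lower. *Ngfr*, the p75 neurotrophin receptor used to isolate crest stem cells (chromosome 11, 95568818 to 95587735, minus strand), was at 3.63, 3.48 and 3.75 cpm against 1231, 1217 and 1276 cpm. The tail pNSC and NCSC values did not overlap for any of these genes, as was so for 83.2% of all tested genes. *Tfap2b*, also lower, was at 1.28, 1.46 and 1.27 cpm in NCSCs.

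The crest list also held 5 genes that were higher in tail pNSCs, of which *Sox9* and *Ednrb* are known from other lineages too. *Sox9*, a SoxE factor of crest, neural tube progenitors and astrocytes (chromosome 11, 112782224 to 112787760, plus strand), was at 205, 208 and 204 cpm against 8.25, 8.005 and 8.80 cpm, the opposite order to *Sox10* (log2 fold change 4.63 ± 0.05, adjusted p = 2.1e-21). *Ednrb*, the endothelin receptor of crest and astrocytes (chromosome 14, 103814625 to 103844402, minus strand), was at 1315, 1308 and 1331 cpm against 328, 332 and 241 cpm. *Id3*, an inhibitor of basic helix-loop-helix factors, was at 148 ± 0.285 cpm in tail pNSCs and 48.7 ± 1.04 cpm in NCSCs. *Prdm1* was at 11.7 ± 1.13 cpm in tail pNSCs and 1.32 ± 0.186 cpm in NCSCs and *Msx1* at 3.40 ± 0.528 cpm in tail pNSCs and 0.383 ± 0.204 cpm in NCSCs.

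**Figure D2:**
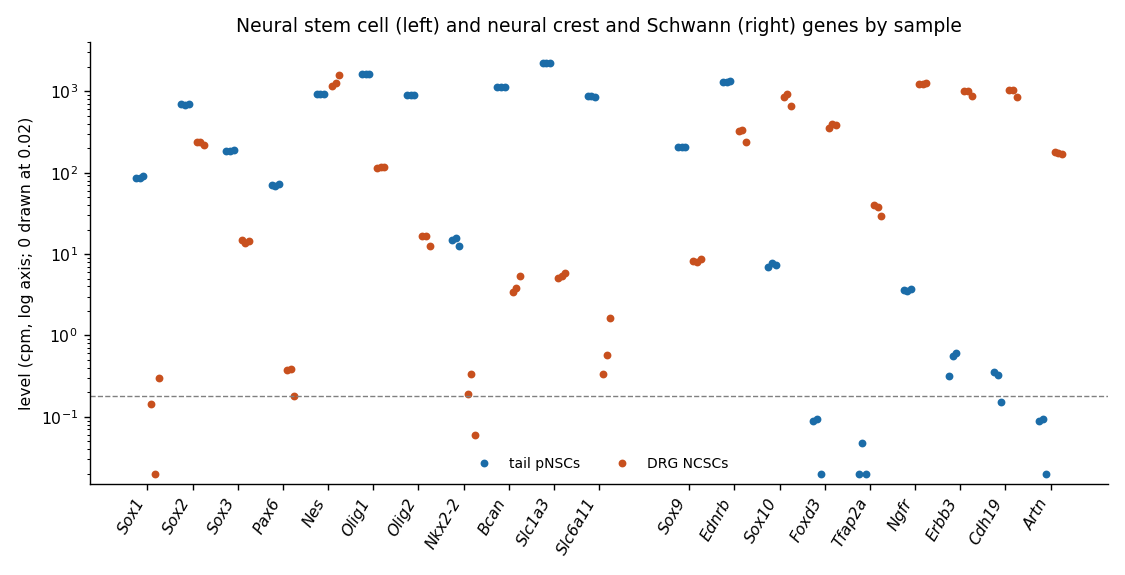
Level in cpm (y axis, log scale, with 0 drawn at 0.02) of 11 genes of neural stem cells and their glial progeny (left block) and 9 genes of the neural crest and Schwann lineage (right block) in each of the 3 tail pNSC samples (blue) and the 3 DRG NCSC samples (orange). The dashed line marks 3 counts in the shallowest library (0.181 cpm). The blue and orange points lie apart for every gene, as for 83.2% of all tested genes, with *Nes* as the pair of groups closest to each other.

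The Schwann cell lineage list was lower in tail pNSCs almost throughout. Of 20 tested genes, 16 were lower and 1 higher (80.0% lower beside 22.6% of all tested genes, median log2 fold change -5.26). *Erbb3*, the neuregulin receptor that Schwann cell precursors need (chromosome 10, 128567523 to 128589652, minus strand), was at 0.313, 0.564 and 0.616 cpm against 1002, 1008 and 876 cpm. The log2 fold change was -10.91 ± 0.11 (adjusted p = 8.1e-22). *Cdh19*, a cadherin of Schwann cell precursors and Sox10-positive glia (chromosome 1, 110888326 to 110977584, minus strand), was at 0.358, 0.329 and 0.154 cpm against 1028, 1035 and 841 cpm. *Artn*, which encodes artemin, a GDNF-family ligand, was at 0.0895, 0.0940 and 0 cpm against 178, 174 and 168 cpm and at least 1126-fold lower. *Pmp22*, which encodes a protein of peripheral myelin, was at 27.7 ± 0.709 cpm in tail pNSCs and 254 ± 4.54 cpm in NCSCs. *Gap43*, a growth-associated protein of neurons and repair Schwann cells, fell less (log2 fold change -4.11 ± 0.05). *Ncam1*, the adhesion molecule of neural tube and peripheral glia, was the called higher member, at 400.2 ± 5.06 cpm in tail pNSCs and 122 ± 12.6 cpm in NCSCs.

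NCSC libraries also held transcripts that mark cell types other than crest stem cells and glia, and tail pNSC libraries held fewer of them. In bulk RNA, fewer cells of a type and less RNA per cell cannot be told apart. All 7 tested members of the leukocyte list were lower in tail pNSCs, and their list summed to 657, 649.7 and 690.5 cpm in NCSCs and to 1.03, 1.46 and 1.39 cpm in tail pNSCs (median log2 fold change -10.52, or -6.26 with the 5 genes at the detection limit set to their bounds). *Lyz2*, the lysozyme of macrophages (chromosome 10, 117277331 to 117282321, minus strand), made up most of this sum, at 524, 519 and 564 cpm in NCSCs against 0.0448, 0.0470 and 0 cpm, at least 3478-fold lower. *Adgre1* (F4/80) was at 40.4, 41.1 and 40.6 cpm in NCSCs and 0 in all 3 tail pNSC libraries. *Csf1r*, the macrophage growth factor receptor, was at 48.2, 45.6 and 48.6 cpm in NCSCs against 0, 0 and 0.0513 cpm. *Ptprc* (CD45), carried by all leukocytes, was at 11.7, 13.1 and 10.6 cpm in NCSCs against 0 in all 3, so the defining leukocyte markers were at or near 0 in tail pNSCs. The T cell marker *Cd3e* was too low to test. The part of such cells in the differences between the groups was not tested.

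Sensory neuron genes showed the same order. Of 18 tested genes of the sensory and autonomic neuron lineage list, 14 were lower and 4 higher in tail pNSCs (median log2 fold change -6.22, or -5.84 with 6 genes at their bounds), and 7 were too low to test, among them the autonomic factors *Phox2a* and *Hand2*. *Scn9a*, a sodium channel of nociceptors, was at 42.7, 43.9 and 37.5 cpm in NCSCs and 0 in all 3 tail pNSC libraries. *Scn10a*, another such channel, was at 22.2, 23.1 and 17.4 cpm in NCSCs and also 0 in all 3 tail pNSC libraries. *Prph*, the filament peripherin of peripheral neurons, was at 0.318 ± 0.0544 cpm in tail pNSCs and 159 ± 9.89 cpm in NCSCs. The called higher members were the neurotrophin receptors *Ntrk2* and *Ntrk3*, which central glia and neurons also carry, the proneural factor *Neurog2* (4.18 ± 0.252 cpm, 0 in all 3 NCSC libraries) and *Eya1*. *Ntrk2* was at 451 ± 7.38 cpm in tail pNSCs and 42.1 ± 3.08 cpm in NCSCs. *Ntrk3* was at 128 ± 1.16 cpm in tail pNSCs and 20.6 ± 0.888 cpm in NCSCs. These receptors made up most of the list's sum in tail pNSCs, and the summed level was 599 cpm there and 730.0 cpm in NCSCs. Pan-neuronal genes were mixed, with 6 of 12 lower and 3 higher. *Nefl*, a neurofilament gene, was at 1.05 ± 0.0938 cpm in tail pNSCs and 423 ± 15.3 cpm in NCSCs, and *Nefm* and *Stmn2* were lower with it. *Dcx*, a microtubule protein of immature neurons, was higher (23.1 ± 0.399 cpm in tail pNSCs and 1.83 ± 0.191 cpm in NCSCs), as were *Map2* (log2 fold change 2.70 ± 0.05) and *Elavl4* (1.08 ± 0.09, 0.95 and no longer called without NCSC replicate 3). *Nefl* and *Nefm* overlap in their exons on opposite strands, and the strand setting of the counting was not given in the sources used here.

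Fibroblast markers were mostly lower in tail pNSCs and still above those of DRG pNSCs. Of 11 tested fibroblast genes, 6 were lower and 3 higher, and the list summed to between 4436 and 5013 cpm in the NCSC libraries and between 466 and 474 cpm in the tail pNSC libraries. *Postn*, the matrix protein periostin (chromosome 3, 54361109 to 54391037, plus strand), carried most of the sum in NCSCs, at 4257, 4281 and 3755 cpm against 96.8, 96.1 and 95.4 cpm. *Dcn* (decorin) was at 9.85 ± 0.241 cpm in tail pNSCs and 102 ± 2.75 cpm in NCSCs. *Pdgfrb*, also a pericyte receptor, was at 9.01 ± 0.113 cpm in tail pNSCs and 145 ± 8.16 cpm in NCSCs. In DRG pNSCs *Postn* was at 0.253 ± 0.250 cpm and *Dcn* at 0.0661 ± 0.0573 cpm. All 11 tested members were called higher in tail pNSCs than in DRG pNSCs, beside 1497 of all 14448 tested genes called higher in that contrast. Against NCSCs, *Pdpn* (podoplanin), known also from glia, was higher at 98.1 ± 0.286 cpm in tail pNSCs and 6.43 ± 0.483 cpm in NCSCs. *Acta2*, the smooth muscle actin, was higher at 42.7 ± 0.967 cpm in tail pNSCs and 3.46 ± 0.395 cpm in NCSCs, and *Prrx2* was just past the limit. Of 6 tested endothelial genes 3 were lower, among them *Cdh5* (24.8, 25.6 and 19.6 cpm in NCSCs, at least 152-fold lower), and of the skeletal muscle list *Des* alone was lower of 2 tested. Of 2 tested epidermal genes *Lor* was higher (3.51 ± 0.206 cpm in tail pNSCs and 0.557 ± 0.120 cpm in NCSCs). Of 5 tested melanocyte genes 3 were lower, *Dct*, *Tyrp1* and *Pmel*, all under 4 cpm in every library, and *Kit*, a receptor of melanoblasts and other progenitors, was higher (15.6 ± 0.611 cpm in tail pNSCs and 6.19 ± 0.625 cpm in NCSCs). The part of fibroblasts, endothelial cells and melanocytes in the differences was not tested.

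**Figure D3:**
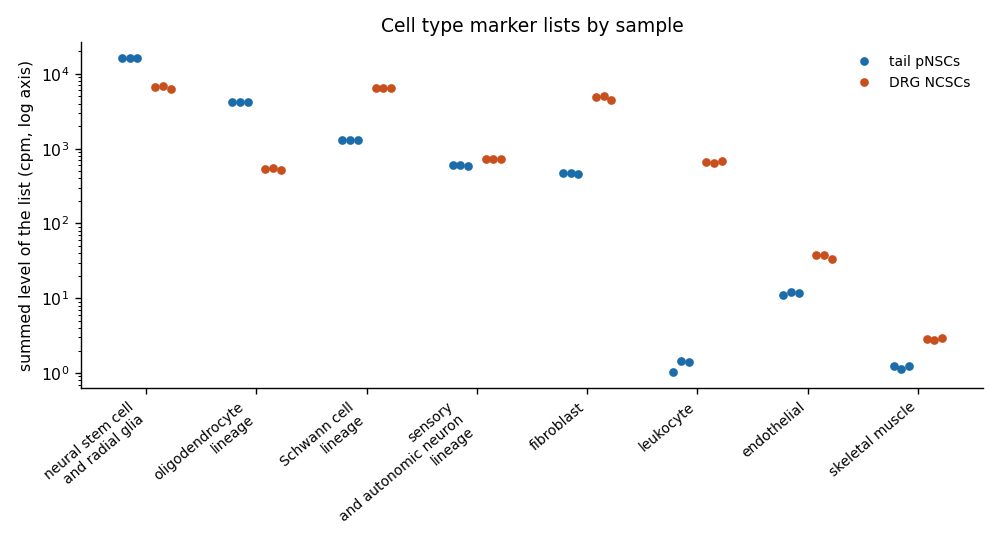
Summed level in cpm (y axis, log scale) of 8 cell type marker lists in each tail pNSC sample (blue) and each DRG NCSC sample (orange). The leukocyte list sums to 649.7 to 690.5 cpm in NCSCs and to 1.03 to 1.46 cpm in tail pNSCs, the fibroblast and Schwann cell lists are also higher in NCSCs, and the neural stem cell and oligodendrocyte lists are higher in tail pNSCs.

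The *Hox* genes, which give cells their position along the body axis, differed by cluster and by paralogue group, that is, by their place within a cluster from anterior to posterior. Of 39 *Hox* genes, 35 were tested, 21 were higher and 6 lower in tail pNSCs (median log2 fold change 1.75), and *Hoxb1*, *Hoxd1*, *Hoxd12* and *Hoxd13* were too low to test. Higher and lower members were 60% and 17.1% of those tested, beside 15.3% and 22.6% of all tested genes. *Hoxb13*, the most posterior gene of its cluster (chromosome 11, 96194316 to 96197447, plus strand), was at 51.0, 52.3 and 54.4 cpm in tail pNSCs and 0 in all 3 NCSC libraries. It was at least 291-fold higher (adjusted p = 6.8e-15). *Hoxa13* was at 10.2, 8.04 and 10.0 cpm and also at 0 in all 3 NCSC libraries, at least 52.1-fold higher. *Hoxa10* and *Hoxa11* had log2 fold changes of 3.58 ± 0.08 and 4.84 ± 0.28 (5.54 for *Hoxa11* without NCSC replicate 2). Posterior genes of the D cluster lay in the same direction. *Hoxd9* had a log2 fold change of 3.49 ± 0.12. *Hoxd10* was at 20.1 ± 0.577 cpm in tail pNSCs and 0.845 ± 0.0521 cpm in NCSCs, and *Hoxd11* at 10.1 ± 0.396 cpm in tail pNSCs and at least 55.9-fold higher. In the B cluster, *Hoxb8* was at 83.1, 86.1 and 86.5 cpm against 8.77, 8.10 and 5.54 cpm. *Hoxb9* was at 83.0, 82.8 and 83.0 cpm against 25.3, 23.5 and 21.0 cpm, so that its groups were closer but did not overlap.

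The middle of the B cluster did not separate the groups by 2-fold. *Hoxb2* to *Hoxb7* all had absolute log2 fold changes under 1, from -0.96 ± 0.12 for *Hoxb7* to 0.71 ± 0.24 for *Hoxb2*, and *Hoxb5* (3.83 ± 0.393 cpm in tail pNSCs and 3.15 ± 0.751 cpm in NCSCs, adjusted p = 0.153) and *Hoxb3* (adjusted p = 0.108) did not pass the adjusted p limit at all. Single libraries decided some of these calls, since *Hoxb2* reached 1.02 without NCSC replicate 3 and *Hoxb7* -1.11 without NCSC replicate 2, both past the limits. In the A cluster the anterior genes *Hoxa2* to *Hoxa5* were higher in tail pNSCs at low levels, from 1.05 ± 0.20 for *Hoxa3* to 2.12 ± 0.29 for *Hoxa4*, and *Hoxa9* was at 23.2 ± 0.906 cpm in tail pNSCs and 7.94 ± 1.10 cpm in NCSCs. *Hoxa3* lost its call without tail replicate 1 or without NCSC replicate 2 or 3 (lowest log2 fold change 0.94), and *Hoxa2* moved to 2.92 without NCSC replicate 2. *Hoxa6* and *Hoxa7* were not called. *Hoxa6* was near the detection limit at 0.300 ± 0.108 cpm in tail pNSCs and 0.467 ± 0.355 cpm in NCSCs, and was called lower at -1.14 without NCSC replicate 3. *Hoxd3*, *Hoxd4* and *Hoxd8* were higher, at 39.5 ± 0.725 cpm in tail pNSCs and 11.7 ± 0.795 cpm in NCSCs for *Hoxd8* and with a log2 fold change of 3.27 ± 0.39 for *Hoxd3* (4.12 without NCSC replicate 3).

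The C cluster ran the other way for *Hoxc4* to *Hoxc10*, which were all 6 lower in tail pNSCs. *Hoxc6* was at 0.313, 0.470 and 0.103 cpm against 8.48, 10.1 and 9.58 cpm, a log2 fold change of -4.93 ± 0.23. *Hoxc8* was at 2.18, 2.09 and 3.37 cpm in NCSCs and at least 16.5-fold lower, and *Hoxc9* and *Hoxc10* had log2 fold changes of -2.77 ± 0.23 and -1.91 ± 0.20. The posterior end of the cluster, *Hoxc11* to *Hoxc13*, was higher in tail pNSCs at levels under 2 cpm. *Hoxc5* and *Hoxc10* share exon sequence in the annotation, as do *Hoxd3* and *Hoxd4*, and 7 others of the *Hox* genes named here overlap an antisense transcript, so their counts may be split or mixed.

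Against the DRG pNSCs, which were derived in the same way from DRG of the same transgenic mice, 24 of the 35 tested *Hox* genes were called, 10 higher and 14 lower in tail pNSCs, beside 18.0% of all genes tested. *Hoxc8* was at 24.9, 27.7 and 26.7 cpm in DRG pNSCs, above both tail pNSCs and NCSCs. *Hoxa5* was at 119, 119 and 114 cpm there, against 4.83, 4.32 and 4.78 cpm in tail pNSCs (log2 fold change -4.65 ± 0.08, tail pNSCs minus DRG pNSCs). *Hoxb13* was at 0.517, 0.200 and 0.687 cpm in DRG pNSCs, a log2 fold change of 6.77 ± 0.16. Tail pNSCs held *Hoxa10* to *Hoxa13*, *Hoxb9*, *Hoxb13* and *Hoxd9* to *Hoxd11* above DRG pNSCs, and with them the anterior genes *Hoxd3* and *Hoxd4*, each past the limits. The 14 lower genes were *Hoxa2*, *Hoxa3*, *Hoxa5* to *Hoxa9* and *Hoxc4* to *Hoxc12*.

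**Figure D4:**
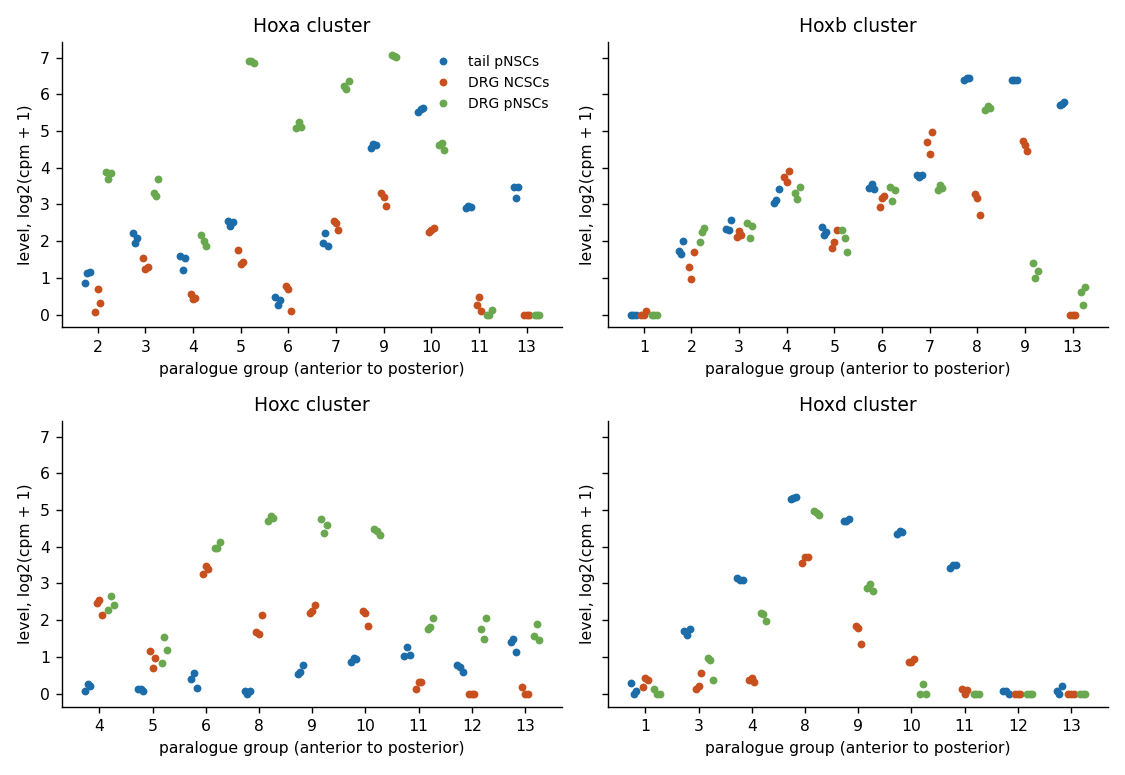
Level as log2(cpm + 1) (y axis) of 38 *Hox* genes of the 4 clusters, ordered by paralogue group from anterior to posterior (x axis), in the 3 samples each of tail pNSCs (blue), DRG NCSCs (orange) and DRG pNSCs (green). *Hoxa10* to *Hoxa13*, *Hoxb8* to *Hoxb13* and *Hoxd8* to *Hoxd11* are highest in tail pNSCs, with *Hoxb13* and *Hoxa13* at 0 in all 3 NCSC samples, while *Hoxc4* to *Hoxc10* are lower in tail pNSCs than in both other groups.

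Dorsoventral patterning genes of the neural tube were mostly higher in tail pNSCs. Of 13 tested, 9 were higher and 3 lower (median log2 fold change 2.80, or 2.68 with 3 genes at their bounds), and 7 were too low to test. *Dbx2*, which marks progenitors at the middle of the dorsoventral axis (chromosome 15, 95623563 to 95655960, minus strand), was at 265, 267 and 266 cpm against 0.237, 0.194 and 0.301 cpm, a log2 fold change of 10.07 ± 0.08 (adjusted p = 1.1e-22). *Nkx6-1*, a ventral progenitor factor, was at 91.1, 92.9 and 93.6 cpm against 2.89, 2.23 and 1.27 cpm. *Sp8* was at 48.1, 47.4 and 49.3 cpm against 0 in all 3 NCSC libraries, at least 267-fold higher, and also at 0 in all 3 DRG pNSC libraries. The other higher members were *Nkx6-2*, *Irx3*, *Irx5*, *Gsx1*, *Zic2* and *Zic5*. The lower members were the dorsal genes *Zic1* (0.800 ± 0.307 cpm in tail pNSCs and 9.21 ± 0.573 cpm in NCSCs) and *Lmx1b* and the sensory regulator *Prdm12*. *Zic* genes thus lay on both sides, and an order along the dorsoventral axis was not tested. Forebrain and midbrain genes were low in both groups and mixed, with 4 of 11 tested higher, among them *Lhx2*, *En1* and *En2*, and 3 lower, among them *Dlx1* and *Dlx2*. The list summed to 7.16 cpm in tail pNSCs and 9.05 cpm in NCSCs. With the 6 samples alone, 4 genes of the list passed the filter on low counts, 2 called higher and 2 lower. The other genes were tested only in the fit that also held brain NSCs and DRG pNSCs.

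Components of Notch signalling, which keeps NSCs undifferentiated through contact between neighbouring cells, were higher in tail pNSCs from ligand to target. Of 18 tested, 13 were higher and 2 lower (median log2 fold change 2.53), with 12 higher without NCSC replicate 3. The ligand gene *Dll1* was at 116, 107 and 118 cpm against 1.09, 1.36 and 0.783 cpm. *Dll3*, whose product acts within the cell, was at 65.6, 62.3 and 63.8 cpm against 0.142, 0.485 and 0.181 cpm. The log2 fold changes were 6.68 ± 0.09 for *Dll1* and 7.82 ± 0.14 for *Dll3*, the latter 8.57 without NCSC replicate 2. Among the receptors, *Notch3* was at 337 ± 1.81 cpm in tail pNSCs and 20.5 ± 1.37 cpm in NCSCs, and *Notch1* and *Notch2* were just past the 2-fold limit (log2 fold change 1.06 ± 0.06 and 1.17 ± 0.06). *Hes5*, the Notch target of the neural tube (chromosome 4, 154960923 to 154962371, plus strand), was at 45.7, 45.3 and 48.6 cpm in tail pNSCs and 0 in all 3 NCSC libraries, at least 257-fold higher (adjusted p = 2.0e-17). *Hes1*, the Notch target shared by many tissues, was within 2-fold (95.3 ± 2.09 cpm in tail pNSCs and 61.0 ± 5.93 cpm in NCSCs). The lower members were *Heyl*, a target known from vascular and crest-derived cells, at 3.45, 2.54 and 3.80 cpm against 90.3, 94.0 and 74.1 cpm, and the ligand *Jag2* (0.394 ± 0.0813 cpm in tail pNSCs and 6.70 ± 1.18 cpm in NCSCs).

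The 250 bases before the RefSeq start of *Hes5* (GRCm38.p6) are shown because this target had no counts in NCSCs. The capitals mark GTGGGAA or its complement TTCCCAC, the core bound by the Notch cofactor RBPJ, searched on both strands, at 226 and 83 bases before the start.
Hes5, chr4:154960673-154960922, plus strand: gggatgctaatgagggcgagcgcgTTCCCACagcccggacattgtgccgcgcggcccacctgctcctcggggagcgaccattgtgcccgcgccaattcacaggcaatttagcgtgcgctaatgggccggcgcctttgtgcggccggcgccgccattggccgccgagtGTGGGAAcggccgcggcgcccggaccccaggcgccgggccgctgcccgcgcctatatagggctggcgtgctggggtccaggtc
These letters occur in 5.42% of all 32851 promoter windows of this length, and of 14 Notch-list genes in the promoter table in 3 (*Hes5*, *Hey2* and *Lfng*). A match describes the sequence and shows no binding.

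The other signalling lists were more divided. In the Sonic hedgehog list, 6 of 11 genes were higher (54.5%, beside 15.3% of all tested genes). They were the receptor *Ptch1*, the co-receptors *Boc*, *Cdon* and *Gas1*, the decoy *Hhip* and the effector *Gli2*. *Ptch1* was at 379.9 ± 5.43 cpm in tail pNSCs and 97.4 ± 7.14 cpm in NCSCs. *Gli1*, a direct target like *Ptch1*, was the lower member, at 1.38 ± 0.110 cpm in tail pNSCs and 3.07 ± 0.380 cpm in NCSCs. *Cdon* and *Boc* had log2 fold changes of 2.57 ± 0.06 and 2.52 ± 0.06. In the Wnt list, 14 of 31 tested were higher and 11 lower (median log2 fold change 0.79). These were 45.2% and 35.5% of those tested, beside 15.3% and 22.6% of all tested genes. The ligand gene *Wnt7a* (chromosome 6, 91363981 to 91411363, minus strand) was at 130.0, 132 and 131 cpm against 0.569, 0.485 and 0.542 cpm, a log2 fold change of 7.92 ± 0.09. The receptor genes *Fzd9* and *Fzd10* rose with it (107 ± 2.02 cpm in tail pNSCs and 0.830 ± 0.292 cpm in NCSCs for *Fzd9*), whereas *Fzd1* (52.4 ± 1.42 cpm in tail pNSCs and 409.7 ± 1.59 cpm in NCSCs), the ligand *Wnt6* and the nuclear factor *Tcf7* were lower. *Axin2*, a feedback target of Wnt signalling, was at 53.7 ± 0.512 cpm in tail pNSCs and 5.54 ± 0.168 cpm in NCSCs.

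In the BMP and TGF-beta list 12 of 28 were lower and 7 higher (median log2 fold change -0.62). These were 42.9% and 25% of the list, beside 22.6% and 15.3% of all tested genes. *Tgfbi*, a matrix protein induced by TGF-beta (chromosome 13, 56609523 to 56639562, plus strand), was at 13.4, 11.1 and 12.1 cpm against 752, 756 and 678 cpm. *Inhba*, the activin subunit, was at 0.344 ± 0.133 cpm in tail pNSCs and 36.3 ± 1.05 cpm in NCSCs. *Grem1*, a secreted BMP antagonist, was at least 96.4-fold lower. The rises were in *Bmpr1b*, a type I BMP receptor of neural progenitors (89.2 ± 5.90 cpm in tail pNSCs and 0.752 ± 0.0905 cpm in NCSCs), in *Bmp7* (log2 fold change 2.69 ± 0.07) and in the target *Id2* (1.52 ± 0.07). Receptor tyrosine kinases and their ligands lay on both sides, with 9 of 34 tested higher (26.5%) and 17 lower (50%). Their median log2 fold change was -0.99. *Egfr*, the receptor of the EGF in the medium of the tail pNSCs (chromosome 11, 16752203 to 16918158, plus strand), was at 764, 769 and 746 cpm against 14.6, 14.9 and 12.8 cpm, a log2 fold change of 5.75 ± 0.05 (adjusted p = 2.9e-22). *Fgfr3* was at 401, 395 and 401 cpm against 0.237, 0.485 and 1.39 cpm, with a log2 fold change of 9.24 ± 0.13, or 10.08 without NCSC replicate 3. *Erbb4* rose by 8.12 ± 0.17 on the log2 scale, or by 8.86 without that library. The lower genes held ligands, among them *Btc* (0.434 ± 0.151 cpm in tail pNSCs and 86.9 ± 5.34 cpm in NCSCs) and *Fgf5* (0.784 ± 0.361 cpm in tail pNSCs and 151 ± 4.55 cpm in NCSCs), and the receptor *Met* (log2 fold change -5.66 ± 0.10).

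Collagens, the structural proteins of the extracellular matrix, were mostly lower in tail pNSCs. Of 33 tested collagen genes, 25 were lower and 4 higher in tail pNSCs (75.8% lower, beside 22.6% of all tested genes, median log2 fold change -3.03), and the list summed to between 19928 and 22243 cpm in NCSCs and between 1419 and 1439 cpm in tail pNSCs. *Col18a1*, a basement membrane collagen (chromosome 10, 77052178 to 77166548, minus strand), was at 34.0, 36.5 and 32.0 cpm against 4182, 4354 and 4242 cpm. The log2 fold change was -6.96 ± 0.06 (adjusted p = 1.4e-22). *Col28a1*, a collagen of peripheral nerve, was at 5.00 ± 0.623 cpm in tail pNSCs and 234 ± 3.39 cpm in NCSCs. *Col20a1* was at 2.46 ± 0.332 cpm in tail pNSCs and 123 ± 4.35 cpm in NCSCs. *Col1a1*, the fibrillar collagen of mesenchymal cells, was at 104 ± 3.32 cpm in tail pNSCs and 770.4 ± 142 cpm in NCSCs and at 0.999 ± 0.450 cpm in DRG pNSCs. The higher members included *Col4a5*, a chain of basement membranes (50.9 ± 0.330 cpm in tail pNSCs and 8.59 ± 0.476 cpm in NCSCs), and *Col9a3* (30.7 ± 0.849 cpm in tail pNSCs and 13.5 ± 2.72 cpm in NCSCs). Integrins and laminins followed with 19 of 27 lower and 3 higher (median log2 fold change -1.40). *Itga8*, the integrin chain that binds nephronectin, was at 1.98 ± 0.0795 cpm in tail pNSCs and 615 ± 81.3 cpm in NCSCs. *Itgb3* and *Itgb4* had log2 fold changes of -6.34 ± 0.10 and -5.52 ± 0.11. The rises were *Lama5*, a basement membrane laminin (319 ± 1.15 cpm in tail pNSCs and 68.6 ± 2.82 cpm in NCSCs), *Lama1* and *Itga9*.

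Matrix proteases and their inhibitors were lower in 23 of 28 genes and higher in 3 (median log2 fold change -3.52). These were 82.1% and 10.7% of the list, beside 22.6% and 15.3% of all tested genes. *Mmp3*, *Mmp10*, *Mmp12* and *Mmp13*, which encode stromelysins, macrophage elastase and a collagenase, lie within 237.7 kb on chromosome 9 (7272514 to 7510240, GRCm38). Each had at most 1 count in any tail pNSC library. *Mmp3* was at 372, 356 and 437 cpm in NCSCs and 0 in all 3 tail pNSC libraries, at least 2519-fold lower (adjusted p = 2.5e-16). *Mmp13* was at 229, 228 and 230.0 cpm in NCSCs and at 0, 0.0470 and 0 cpm in tail pNSCs, at least 1486-fold lower. *Mmp10* was at 69.0, 70.1 and 72.4 cpm in NCSCs, and *Mmp12*, a gene of macrophages, at 7.68, 8.93 and 6.63 cpm. The rises were in inhibitors and a plasminogen activator. *Serpine2* (protease nexin 1) was at 3722 ± 36.9 cpm in tail pNSCs and 717 ± 70.3 cpm in NCSCs. *Plat*, tissue plasminogen activator, was at 847 ± 4.49 cpm in tail pNSCs and 159 ± 15.4 cpm in NCSCs. *Timp4*, a metalloprotease inhibitor, was at 267 ± 3.67 cpm in tail pNSCs and 1.88 ± 0.545 cpm in NCSCs. *Serpine2* made up most of the list's sum in tail pNSCs, which was 6271 cpm in tail pNSCs and 8254 cpm in NCSCs.

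The promoter windows of *Mmp3*, *Mmp10* and *Mmp13* (250 bases before the RefSeq start, GRCm38.p6) are shown because these neighbours were at or near 0 together in tail pNSCs. The capitals mark TGANTCA, the AP-1 site, which is its own reverse complement and was searched on both strands, at 46, 63 and 35 bases before the start in this order.
Mmp3, chr9:7445572-7445821, plus strand: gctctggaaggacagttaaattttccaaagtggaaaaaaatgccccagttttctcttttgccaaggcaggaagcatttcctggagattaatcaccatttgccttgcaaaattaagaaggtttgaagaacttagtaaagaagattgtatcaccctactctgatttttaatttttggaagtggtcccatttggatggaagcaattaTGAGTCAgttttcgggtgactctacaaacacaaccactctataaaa
Mmp10, chr9:7502092-7502341, plus strand: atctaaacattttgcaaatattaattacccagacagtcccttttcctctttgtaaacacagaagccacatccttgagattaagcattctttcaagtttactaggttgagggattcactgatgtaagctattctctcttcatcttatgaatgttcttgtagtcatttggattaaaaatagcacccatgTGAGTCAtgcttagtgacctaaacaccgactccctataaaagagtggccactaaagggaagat
Mmp13, chr9:7272264-7272513, plus strand: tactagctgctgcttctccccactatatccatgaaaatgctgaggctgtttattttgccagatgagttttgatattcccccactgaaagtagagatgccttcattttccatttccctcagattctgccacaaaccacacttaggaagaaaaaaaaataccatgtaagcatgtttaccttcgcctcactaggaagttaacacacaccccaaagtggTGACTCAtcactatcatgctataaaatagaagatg
These letters occur in 6.75% of all promoter windows and in 5 of 17 genes of this list in the promoter table, including *Mmp12* and *Plaur*. The match is a description of the sequence, and nothing was measured of the factors that bind it.

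Secreted signals of inflammation and the antigen presentation genes were lower in tail pNSCs. Of 21 tested chemokine and cytokine genes, 15 were lower and 4 higher (median log2 fold change -4.52, or -3.64 with 5 genes at their bounds). *Lif*, a cytokine of injured nerve, was at 0.134, 0.376 and 0.462 cpm against 63.9, 62.7 and 53.7 cpm. *Cxcl1* was at least 106-fold lower and *Il11* at least 82.7-fold lower. The higher genes were *Cx3cl1*, a chemokine of neurons and glia, the CXCL12 receptors *Cxcr4* and *Ackr3*, and *Il18*. *Cx3cl1* was at 213 ± 3.40 cpm in tail pNSCs and 14.9 ± 1.47 cpm in NCSCs. *Ackr3* was at 41.8 ± 1.07 cpm in tail pNSCs and 3.07 ± 0.485 cpm in NCSCs, and *Cxcr4* at 28.7 ± 0.450 cpm in tail pNSCs and 3.86 ± 0.657 cpm in NCSCs. Of 25 tested genes of antigen presentation and interferon response, 21 were lower (84%) and none higher, with a median log2 fold change of -1.93. *H2-D1*, a class I heavy chain, was at 10.2, 11.3 and 10.9 cpm against 173, 180.1 and 171 cpm. *Ifi27* and *Gbp2*, both interferon-induced, had log2 fold changes of -4.48 ± 0.10 and -3.99 ± 0.09. The leukocyte list was also higher in NCSCs (666 cpm), and its part in these differences was not tested. H2 genes share sequence with each other, so reads may be split between them.

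The promoter windows of *B2m*, *Ifit1* and *Ifit3* are shown as members of this list that hold the interferon-stimulated response element, and these 3 genes were chosen after their values were seen. The capitals mark this element, searched on both strands, in the 250 bases before the RefSeq start.
B2m, chr2:122147437-122147686, plus strand: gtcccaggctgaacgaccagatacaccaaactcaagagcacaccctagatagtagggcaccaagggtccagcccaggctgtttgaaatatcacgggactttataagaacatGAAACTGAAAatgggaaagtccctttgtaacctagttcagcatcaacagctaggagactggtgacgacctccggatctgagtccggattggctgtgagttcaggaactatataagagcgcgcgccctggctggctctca
Ifit1, chr19:34640639-34640888, plus strand: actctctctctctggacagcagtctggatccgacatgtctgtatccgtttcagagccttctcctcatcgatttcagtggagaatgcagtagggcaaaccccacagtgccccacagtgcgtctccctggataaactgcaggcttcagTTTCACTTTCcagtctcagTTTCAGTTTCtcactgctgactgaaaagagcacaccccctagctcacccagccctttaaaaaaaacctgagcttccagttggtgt
Ifit3, chr19:34583279-34583528, plus strand: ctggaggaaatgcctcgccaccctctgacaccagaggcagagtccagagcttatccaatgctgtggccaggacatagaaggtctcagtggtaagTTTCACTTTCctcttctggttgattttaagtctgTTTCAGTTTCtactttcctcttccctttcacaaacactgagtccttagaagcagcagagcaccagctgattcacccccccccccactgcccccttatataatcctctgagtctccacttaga
*B2m*, the shared light chain of class I molecules, was at 55.5 ± 0.729 cpm in tail pNSCs and 299 ± 48.7 cpm in NCSCs. *Ifit1* was at 0.289 ± 0.113 cpm in tail pNSCs and 2.86 ± 0.512 cpm in NCSCs. *Ifit3* was at 0.191 ± 0.0134 cpm in tail pNSCs and 3.06 ± 0.664 cpm in NCSCs, so both *Ifit* genes were low in NCSCs too. The letters occur in 0.68% of all promoter windows and in 8 of 21 genes of the list in the promoter table, and the binding of any factor there was not measured.

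Adhesion and guidance genes changed in both directions. Of 11 tested cadherins 4 were higher and 4 lower (36.4% each, beside 15.3% and 22.6% of all tested genes), so that the list had no common direction. *Cdh4* (R-cadherin) was at 270.0 ± 1.63 cpm in tail pNSCs and 5.91 ± 0.638 cpm in NCSCs. *Cdh22* was at 109 ± 1.42 cpm in tail pNSCs and 1.27 ± 0.0389 cpm in NCSCs. *Cdh6*, a cadherin of emigrating crest, was at 77.3 ± 0.421 cpm in tail pNSCs and 177 ± 23.4 cpm in NCSCs. Of 39 axon guidance genes 11 were higher (28.2%) and 14 lower (35.9%), with a median log2 fold change of -0.18. Among them class 3 semaphorins, secreted guidance cues, lay on both sides. *Sema3e* (chromosome 5, 14025276 to 14256689, plus strand) was at 0.179, 0.235 and 0.103 cpm against 330.0, 325 and 309.8 cpm, and *Sema3b* and *Sema3c* were lower with it (log2 fold change -7.44 ± 0.08 and -5.92 ± 0.09). *Sema3a* went the other way, at 213, 219 and 218 cpm against 6.97, 6.99 and 6.09 cpm. The netrin receptor *Dcc* was higher as well, at 68.3 ± 0.980 cpm in tail pNSCs and 1.83 ± 0.422 cpm in NCSCs. The Eph receptor *Ephb1* had a log2 fold change of 6.74 ± 0.12.

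Proliferation genes differed little. Of 21 tested, 3 were higher and 2 lower (median log2 fold change 0.16), and of 12 cell cycle inhibitors 1 was higher and 1 lower, beside 15.3% and 22.6% of all tested genes. Without NCSC replicate 3, 3 proliferation genes were higher and 3 lower. *Mki67*, the gene of the Ki67 antigen, was at 409, 413 and 388 cpm against 442, 441 and 357 cpm (log2 fold change -0.04 ± 0.06, adjusted p = 0.589). The mitotic genes *Ccnb1*, *Plk1* and *Aurka* were 2.41-, 2.29- and 2.26-fold higher, while the G1 and S phase regulators *E2f1* and *Ccne2* were lower (14.7 ± 1.05 cpm in tail pNSCs and 70.5 ± 8.23 cpm in NCSCs for *E2f1*). *Cdkn1b*, the inhibitor p27, was higher (227 ± 4.12 cpm in tail pNSCs and 95.7 ± 9.11 cpm in NCSCs) and *Gadd45a*, a damage-response gene, lower (12.6 ± 1.17 cpm in tail pNSCs and 80.3 ± 12.7 cpm in NCSCs).

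Genes of developmental timing and imprinted genes moved in both directions. Of 11 tested timing genes 5 were higher and 2 lower (median log2 fold change -0.47), and *Lin28a* and *Lin28b* were too low to test. The higher and lower genes were 45.5% and 18.2% of those tested, beside 15.3% and 22.6% of all tested genes. *Igf2bp1*, an RNA-binding protein of fetal progenitors (chromosome 11, 95957163 to 96005940, minus strand), was at 31.4, 31.8 and 31.5 cpm against 0.142, 0.194 and 0.121 cpm, a log2 fold change of 7.60 ± 0.17 (adjusted p = 7.4e-16). *Igf2bp3* was at 86.2 ± 2.64 cpm in tail pNSCs and 12.9 ± 0.741 cpm in NCSCs, and *Nfib*, a nuclear factor I gene of later glial progenitors, was higher too, with *Nfia* and *Nfix* (621 ± 1.34 cpm in tail pNSCs and 139 ± 2.95 cpm in NCSCs for *Nfib*). The chromatin protein gene *Hmga1* and the nuclear receptor *Nr2f2* were lower (17.4 ± 0.554 cpm in tail pNSCs and 131 ± 18.1 cpm in NCSCs for *Hmga1*). Of 23 imprinted genes 7 were higher and 5 lower (median log2 fold change 0.28). These were 30.4% and 21.7% of the list, beside 15.3% and 22.6% of all tested genes. The maternally expressed non-coding RNAs *Meg3*, *Rian* and *Mirg*, which lie within 208.5 kb on chromosome 12, were all lower. *Meg3* was at 5.77, 6.67 and 5.03 cpm against 89.2, 96.4 and 91.1 cpm. *Rian* was at 4.53 ± 0.651 cpm in tail pNSCs and 86.3 ± 7.52 cpm in NCSCs. The paternally expressed genes *Mest*, *Nnat* and *Magel2* were higher. The other higher members were *Igf2*, *Peg10*, *Zim1* and *Usp29*, and 11 members were not called. An order by parental origin was not tested over the list. *Mest* was at 729 ± 2.62 cpm in tail pNSCs and 58.1 ± 2.23 cpm in NCSCs. *Nnat* (neuronatin) was at 436 ± 3.81 cpm in tail pNSCs and 27.5 ± 1.39 cpm in NCSCs. *Magel2* was at 16.6, 16.5 and 15.5 cpm in tail pNSCs, at least 89.6-fold higher. *Grb10*, at 604 ± 6.88 cpm in tail pNSCs and 497 ± 9.39 cpm in NCSCs, was near equal here and far lower in DRG pNSCs (11.96 ± 0.654 cpm).

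Transcripts of both sex chromosomes were found in every library. By the study's account its cell lines came from mice of both sexes at random, and the mix of sexes in each group was not tested. *Xist*, which is expressed from the inactive X, was at 1164, 1219 and 1121 cpm in tail pNSCs and 339, 327 and 293 cpm in NCSCs, and the Y-linked genes *Ddx3y*, *Eif2s3y*, *Kdm5d* and *Uty* were detected in all 6 samples and not called. *Ddx3y*, for example, was at 35.5, 34.8 and 33.3 cpm against 69.2, 61.9 and 72.9 cpm. *Xist* overlaps its antisense partner *Tsix* (log2 fold change 1.87 ± 0.05).

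The fit across all genes gave its 8 largest falls, among genes at 10 cpm or more in the higher group, to *Mmp3*, *Gzmb*, *Nts*, *Lyz2*, *Adcyap1*, *Pirt*, *Sncg* and *Mmp13*. Most of these genes had no counts in tail pNSCs, so their order depends on the prior count of the fit. The bounds gave another order, with *Lyz2* at least 3478-fold lower, *Mmp3* at least 2519-fold lower and *Nts* at least 770.1-fold lower, and *Foxd3*, outside these 8, at least 2453-fold lower. *Nts* and *Adcyap1* encode the neuropeptides neurotensin and PACAP, and *Pirt* and *Sncg* are known from sensory neurons. *Nts* was at 112, 116 and 128 cpm in NCSCs, *Adcyap1* at 100.5 ± 2.54 cpm (SD) and *Pirt* at 96.3, 99.4 and 85.5 cpm, each at 0 in all 3 tail pNSC libraries. *Gzmb*, the granzyme known from cytotoxic lymphocytes, was at 196, 199 and 156 cpm in NCSCs, where *Cd3e*, a marker of T cells, was too low to test. Among its 8 largest rises were *Kcnj16*, *Hoxb13*, *Sp8*, *Hes5*, *Myh8*, *Rbm24* and *Foxb1*. *Rbm24*, an RNA-binding protein, was at 82.0, 86.0 and 79.6 cpm against 0, 0.0485 and 0.121 cpm, and *Foxb1*, a forkhead factor of the neural tube, at 54.6, 57.3 and 55.8 cpm, at least 309-fold higher. *Myh8*, a perinatal muscle myosin, was at 12.8, 12.2 and 13.7 cpm in tail pNSCs, with the skeletal muscle list at 1.25, 1.13 and 1.23 cpm in the same libraries.

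**Figure D5:**
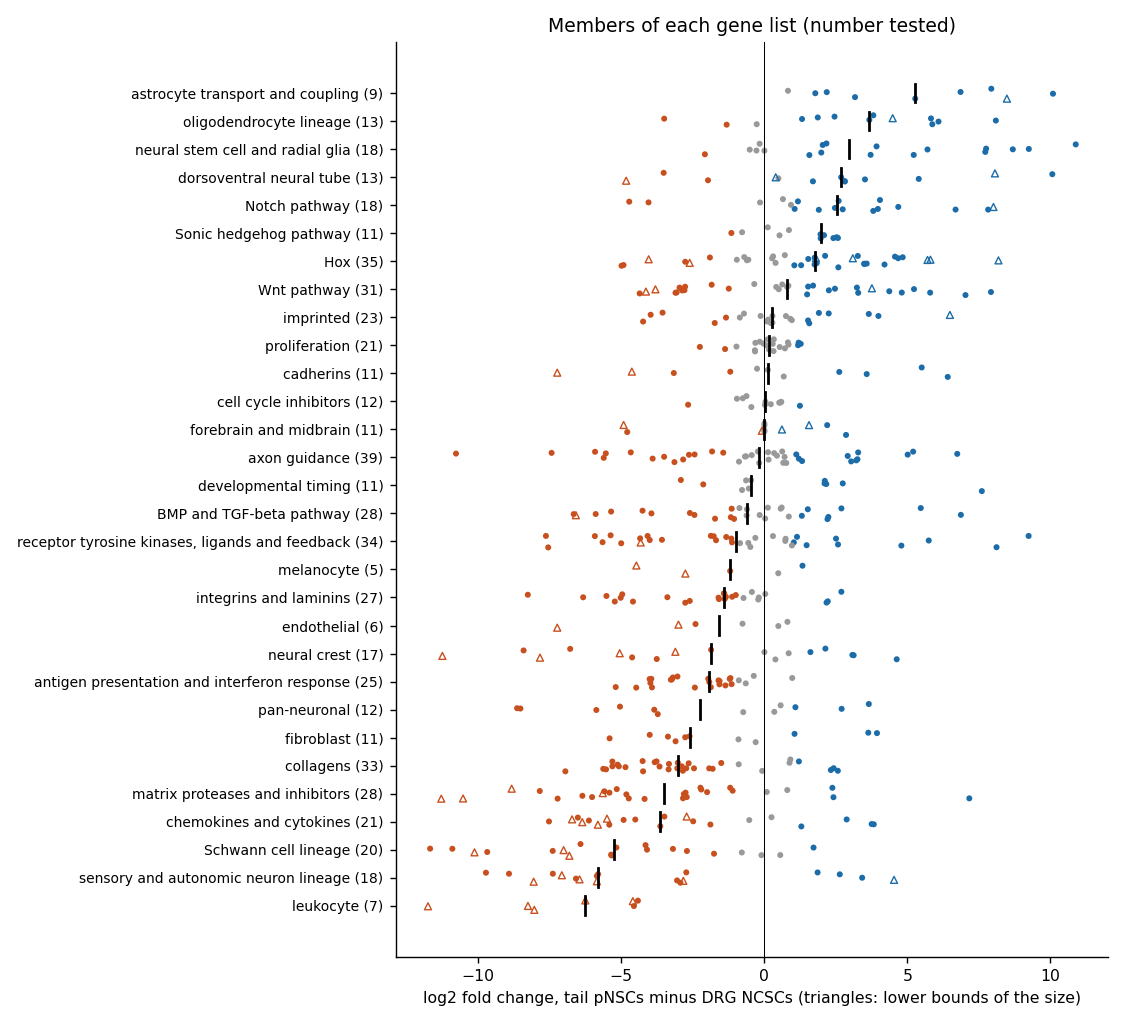
Log2 fold change, tail pNSCs minus DRG NCSCs (x axis), of each tested member of 30 gene lists (rows, number tested in parentheses), with called genes blue or orange, other genes grey and the list median as a black bar. Open triangles are genes at or under 3 counts in all libraries of a group, drawn at the bound of their fold change (genes so low in both groups are at 0), and the lists run from the astrocyte list, with a median of 5.27, to the leukocyte list, with a median of -6.26.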

How the data were processed

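PolyA RNA was sequenced single-end (NEBNext Ultra libraries, NextSeq 500). Per the study's methods and processing notes, the authors mapped reads to GRCm38 and used HISAT2, Cufflinks and HTSeq, and they deposited a table of raw counts per gene. The strand setting, the gene annotation and the culture of the NCSCs were not given in the sources used here.

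The 28 columns were matched to samples by name, with 0 left over, and groups came from the labels. Counts of 12 samples (tail pNSCs, DRG NCSCs, brain NSCs and DRG pNSCs, 3 each) were fitted with edgeR 4.0.16 in R 4.3.3 (quasi-likelihood F-test, TMM scaling, filterByExpr with a minimum count of 10 and a minimum total of 15), with the contrast tail pNSCs minus DRG NCSCs and adjusted p-values over all 14448 tested genes. DESeq2 1.42.0, upper-quartile scaling, other filters, no fold limit, the 6 samples alone, a replicate block and leaving out each sample were alternatives. A group with at most 3 counts in every library was given a bound: its fold was computed against 3 counts in its shallowest library. Such floors, and the depth of 17051461 to 22548268 counts, cover counting error only. Coordinates and exon lengths are from GENCODE M21 and promoters from RefSeq, both GRCm38.

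Members and gene lists were chosen with earlier results of these data known. Named genes were, for each list, up to 3 called rises and 3 called falls of the greatest size at 10 cpm or more without overlap between groups, the first 6 genes of 4 cell type lists, all *Hox* genes, and the 8 largest rises and falls overall. Genes of short counts, and *Axin2*, *B2m*, *Col1a1*, *Ddx3y*, *Fabp7*, *Glul*, *Grb10*, *Hes1*, *Id3*, *Ifit1*, *Ifit3*, *Mki67*, *Mmp12*, *Ncan*, *Notch1* to *Notch3*, *Prph*, *Ptch1* and *Ptprc*, lie outside this rule and were named after their values were seen. Some genes that the rule selects are not reported here. Beside several *Hox* genes, *Sox1*, *Nkx2-2*, *Gpr17*, *Olig1*, *Pdgfra*, *Foxd3*, *Tfap2a*, *Ncam1*, *Scn9a*, *Map2*, *Nefl*, *Nefm*, *Hes5*, *Dll1*, *Fgfr3*, *Col9a3*, *Col20a1*, *Timp4*, *Itga8*, *Itgb4*, *Ephb1*, *Gbp2*, *Plk1*, *Ccne2*, *Gadd45a*, *Igf2bp1*, *Igf2bp3*, *Hmga1*, *Nr2f2*, *Nnat*, *Mest*, *Rian*, *Meg3*, *Csf1r*, *Xist* and *Foxb1* share exon positions with another annotated gene, so their counts are uncertain to that extent.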

Additional observations from a re-analysis of the deposited data

Results flagged for a closer look

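For 8 of the 182 named genes that were tested, tail pNSCs and DRG pNSCs lay on opposite sides of the NCSCs, each past the limits of the test, and the contrast between tail pNSCs and DRG pNSCs, in which the shared NCSC samples cancel, was called too. Both comparisons share the 3 NCSC samples, and all log2 fold changes here are from the edgeR fit. The named genes were mostly picked by the size of their change against NCSCs, with all *Hox* genes included. The same count was not made over all tested genes, so the 8 genes are a description only. Groups of 3 were too small to test for an outlying sample.

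Among the posterior *Hox* genes, *Hoxd10* was higher in tail pNSCs than in NCSCs by 4.56 and lower in DRG pNSCs than in NCSCs, at -3.58, a difference of 8.14 between the pNSCs. *Hoxb9* was at 1.83 and -4.14, a difference of 5.96. The C cluster ran the other way, with *Hoxc8* at -5.98 for tail pNSCs against 3.40 for DRG pNSCs (difference -9.38). *Hoxc9* was at -2.77 and 2.59 (difference -5.36), and *Hoxc10* at -1.91 and 2.60 (difference -4.51).

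The RNA-binding protein gene *Igf2bp3* was at 2.74 and -1.26 (difference 4.00). The hedgehog effector gene *Gli2* was at 2.41 and -1.59 (difference 4.00), and *Xist* at 1.87 and -1.11 (difference 2.98). *Xist* is expressed from the inactive X, and the mix of sexes in the groups was not tested.

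Tail pNSCs had at most 3 counts of *Hoxc8* in each library, and so had DRG pNSCs of *Hoxd10*, so the fitted values that rest on these levels depend on the prior count of the fit and are no bounds. *Hoxa11* and *Igf2bp1* also had fitted changes of opposite sign, but their mean levels in NCSCs (0.213 ± 0.165 cpm and 0.152 ± 0.0378 cpm, SD, n = 3) lay below the 0.300 cpm that 3 counts stand for in the shallowest DRG pNSC library, so DRG pNSCs could not be placed below NCSCs.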

How the results depend on the processing

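No named result changed sign under any alternative. The number of called genes was 5472 (2205 higher, 3267 lower). It was 5444 (2104 and 3340) with DESeq2, 5466 (2237 and 3229) with upper-quartile scaling, 6682 (2497 and 4185) without a filter on low counts, and 5560 (2199 and 3361) with the 6 samples alone. A mean count of at least 100 left 11037 genes tested and 3255 called (1413 and 1842), and without a limit on fold 12076 passed (5966 and 6110). Leaving out each sample in turn gave 5383 to 5443 called genes, 2170 to 2198 higher and 3185 to 3253 lower. The higher genes made up 40.3% of the calls, 49.4% without a limit on fold, and 37.4% to 43.4% over the other alternatives. Upper-quartile scaling changed the levels by between -1.97% and -0.0816%.

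Under the stricter filter, which tests fewer genes, the number of called members became 9 in the neural crest, 9 in the sensory and autonomic neuron, 1 in the melanocyte, 10 in the *Hox*, 5 in the dorsoventral, 1 in the forebrain and midbrain, 11 in the BMP and TGF-beta, 15 in the Wnt, 10 in the chemokine, 13 in the antigen presentation, 7 in the imprinted, 1 in the endothelial, 4 in the leukocyte, 0 in the epidermis and 2 in the sex chromosome list. With the 6 samples alone the forebrain and midbrain list had 4 of 4 tested, beside 11 tested in the main fit. Without a filter the skeletal muscle list had 2, the epidermis list 3 and the sex chromosome list 2. DESeq2 also called 2 sex chromosome genes. Leaving out a sample gave 2 epidermis genes each time, of 3 tested beside 2 tested in the main fit. It gave 1 to 2 sex chromosome genes. The cause of the shifts in which the number of tested genes stayed the same was not tested.

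Equal replicate numbers across groups did not pair the samples: the deviations of same-numbered samples from their group means correlated at 0.0099, 0.0487 and 0.0548. A fit with the replicate number as a block called 5468 genes (2207 higher and 3261 lower). Without NCSC replicate 3, 9 of 182 named genes moved by over 1.5-fold, all of them upward, and the median change of the named genes was 0.0625 on the log2 scale. These were genes high in tail pNSCs with few counts in NCSCs and the highest level in replicate 3 (*Slc6a11* at 7, 12 and 27 counts and *Fgfr3* at 5, 10 and 23 counts in replicates 1 to 3), and the cause was not tested. *Hoxb7* was called lower with DESeq2 (-1.02), under the stricter filter (-1.01) and without NCSC replicate 2 (-1.11). Samples near the limit of 3 counts give only bounds on a fold, and 3 libraries a group limit the precision of each difference.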
